A study of Mus musculus with 2 samples.

Results

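The cells described here are γδ T cells of the mouse uterus, taken from single-cell RNA sequencing of whole uteri from 6-month-old females. A barcode was counted as a cell when 500 or more genes were detected in it and mitochondrial transcripts made up no more than 20% of its counts. Members were chosen by measured values. A cell was taken as a γδ T cell when it had at least 1 unique molecular identifier (UMI, 1 counted transcript) from Cd3e, Cd3g and Cd3d together, transcripts of at least 2 of the 5 genes Trdc, Tcrg-C1, Cd163l1, Blk and Il23r, no Epcam UMI and fewer than 3 UMIs of C1qa, C1qb and C1qc. Of 8603 cells, 433 met this rule, 79 of 3653 in the control library and 354 of 4950 in the knockout library.

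The control mice carried floxed Prickle1 alleles (Prickle1 f/f), and the conditional knockout (cKO) mice carried the same alleles with an Ltf-driven Cre (Prickle1 f/f Ltf-cre; Ltf-iCre in the series design). Prickle1 encodes a planar cell polarity protein. Ltf, the lactoferrin gene, is transcribed in the uterine epithelium, so the deletion is not aimed at T cells. The genotype entry calls both samples C57BL/6J wild-type, which differs from their titles, and the titles were used. The uteri of 3 mice were pooled into a single library in each group, so effects of the genotype cannot be told apart from those of the individual mice, the dissociation or the library. No difference below has a replicate check, and all intervals are 95% intervals that cover counting error only.

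γδ T cells carry a T cell receptor built from a γ and a δ chain in place of the α and β chains of conventional T cells. Successive waves of them leave the fetal thymus with fixed receptors and settle in particular tissues. The wave that populates the uterus carries a receptor of Vγ6 with Vδ1 and is known for a type 17 programme, that is, readiness to secrete interleukin 17 in response to interleukins 1 and 23 without clonal expansion.

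The receptor segments that the cells transcribed describe this label but are no independent test of it. The rule did not use the segments, but it used Trdc and Tcrg-C1, the constant genes of the same receptor chains. The gate for αβ T cells used below also limits the number of rule genes in a cell. High detection of the segments in members and low detection in αβ cells therefore follow in part from how the cells were chosen. In the gene table, Vδ1 is listed as Trdv4 and Vγ6 as Tcrg-V6. The last 90 bases of each segment are shown because they hold the conserved cysteine codon, in capitals, at which the receptor's antigen-contacting junction begins. The sequences are from the GENCODE M21 transcripts on GRCm38, plus strand, 5′ to 3′, at chr14:54075426-54075515 and chr13:19190840-19190929, and lie in the coding exon of each segment.
Trdv4: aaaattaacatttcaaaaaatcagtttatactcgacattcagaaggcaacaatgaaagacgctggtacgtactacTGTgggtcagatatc
Tcrg-V6: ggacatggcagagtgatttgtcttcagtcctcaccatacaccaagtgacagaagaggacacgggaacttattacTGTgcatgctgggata

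Trdv4 was detected in 61 of 79 control members (77.2%) and in 290 of 354 cKO members (81.9%). It was found in 0 of 61 control and 6 of 109 cKO cells of a gate for αβ T cells (Cd3 and Trac detected, fewer than 2 of the 5 rule genes). In a gate for natural killer (NK) cells (no Cd3 or Trac, at least 2 of Ncr1, Klrb1c, Klre1, Eomes and Gzma), it was found in 17 of 88 and 122 of 516 cells. The NK cells had no Cd3 UMI, so a Trdv4 UMI alone does not show that a cell carries a γδ receptor. Median depths were close: 4203 and 4648 UMIs per γδ cell, 4612 and 4355 per αβ cell, and 5744 and 5590.5 per NK cell. When every cell was thinned to 1000 UMIs, Trdv4 remained in 38.0% and 39.9% of γδ cells, against 0% and 0.926% of αβ cells and 1.14% and 4.08% of NK cells. Macrophages by gate (at least 10 C1q UMIs and no Cd3 UMI) had no Trdv4 UMI in either library, at median depths of 10048 and 11477 UMIs. Over all UMIs of the members, counted as CPM (UMIs per 1000000 UMIs of the same cells), Trdv4 stood at 630 in control and 352 in cKO. Without the members that also held at least 5 UMIs of another cell lineage, it stood at 695 and 549 CPM, a cKO to control ratio of 0.79 in place of 0.559.

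Tcrg-V6 was sparse. It was detected in 7 of 79 control members (8.86%) and in 45 of 354 cKO members (12.7%), in no NK cell of either library and in 1 αβ cell, of cKO. All 7 of the control cells with Tcrg-V6 also had Trdv4, as did 43 of the 45 cKO cells. Among members without Tcrg-V6, Trdv4 was in 54 control cells (75.0%) and 247 cKO cells (79.9%). Median depths with and without Tcrg-V6 were 5205 and 4093.5 UMIs in control and 5099 and 4552 in cKO. The segments of other γδ subsets were rarer still: Tcrg-V4 had 2 and 4 UMIs in control and cKO, Tcrg-V1 0 and 1, and Tcrg-V5 6 and 6. The assay reads the 3′ ends of transcripts and V segments lie near the 5′ end, so a segment that was not seen in a cell may still be transcribed there.

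The constant region genes chose the cells and are given only as a description. Trdc, the δ constant gene, was detected in 76 control and 350 cKO members and Tcrg-C1 in 64 and 315. Cd163l1, a scavenger receptor of γδ cells, was detected in 64 and 299, the kinase gene Blk in 28 and 180, and the interleukin 23 receptor gene Il23r in 35 and 88. Trdc was not restricted to members: 23 of 88 control and 137 of 516 cKO NK cells also held a Trdc UMI. Of the constant genes the rule did not use, Tcrg-C2 was in 17 and 65 members and Tcrg-C4 in 11 and 71. Counts of Tcrg-C1 and Tcrg-C2, like those of Trbc1 and Trbc2, are uncertain because these copies are nearly identical. Transcripts of αβ receptor genes were also present: Trbc1 was in 44 of 79 and 212 of 354 members, but Trac, which marks αβ cells, was in 9 and 25 and Cd4 in none. A count of 0 cells allows a share of cells with a Cd4 UMI of up to 3.8% in control and 0.847% in cKO, which does not limit the share of cells that transcribe Cd4 below detection.

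The limit of 2 rule genes divided cells with Cd3 as follows. The 13 control and 54 cKO members with exactly 2 rule genes had Trdv4 in 46.2% and 72.2%, Trac in 15.4% and 5.56% and Pdcd1 in 69.2% and 88.9%. The 14 and 31 cells with exactly 1 rule gene, just outside, had Trdv4 in 21.4% and 22.6%, Trac in 50.0% and 32.3% and Pdcd1 in 42.9% and 38.7%.

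**Figure D1:**
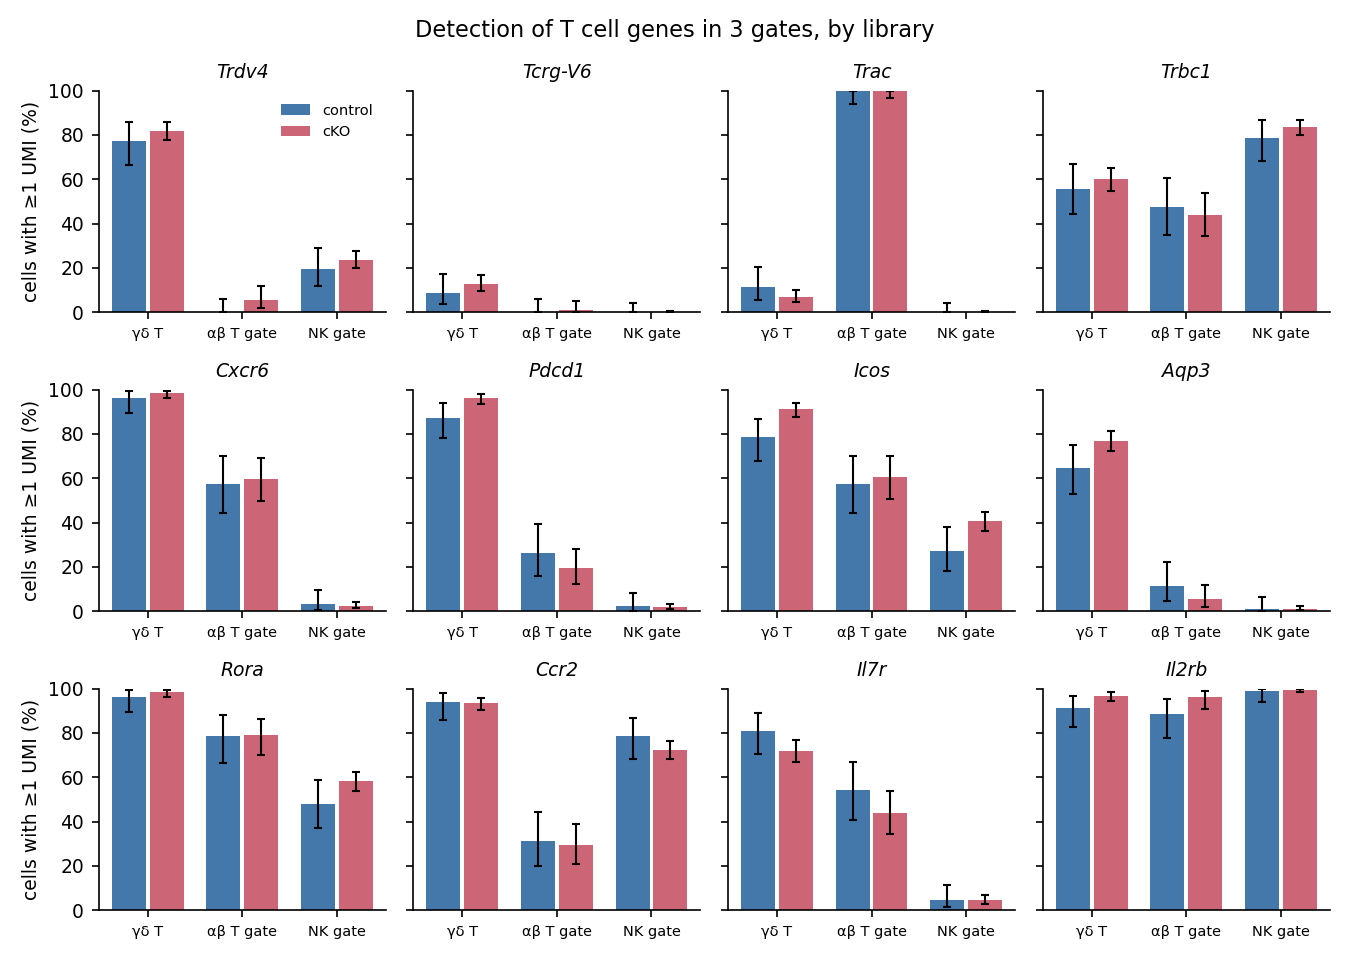
Share of cells (%) with at least 1 UMI of 12 genes in γδ T cells, the αβ T gate and the NK gate, by library (blue control, red cKO); bars are shares and whiskers exact 95% binomial intervals. Trdv4 and Aqp3 stand high in γδ cells and low in both other gates, Trac marks the αβ gate by construction, and Il2rb is high in all 3.

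γδ T cells made up 2.16% of control cells (1.72 to 2.69) and 7.15% of cKO cells (6.45 to 7.91), a ratio of 3.31 (2.58 to 4.28). Shares sum to a whole, and the control library held more cells with Epcam, an epithelial gene. Among cells without an Epcam UMI the shares were 3.03% and 7.43%, a ratio of 2.45 (1.91 to 3.17). A share does not tell more γδ cells from fewer other cells. Among cells with Cd3 the shares were 41.4% (79 of 191) and 66.5% (354 of 532), a ratio of 1.61 (1.26 to 2.08). The αβ gate held 61 and 109 cells and the NK gate 88 and 516. Members held between 1555 and 18154 UMIs in control and between 760 and 111005 in cKO. No member's barcode occurred in the other library, and 5 barcodes were shared among all cells.

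Before the libraries are compared, a difference between their members has to be given. Some members also held transcripts of another cell lineage: 4 of 79 control members (5.06%) and 42 of 354 cKO members (11.9%) had at least 5 UMIs from 1 of 11 marker lists of other lineages. The lists for αβ T cells and type 2 innate lymphoid cells (ILC2) were not used to set members aside. The αβ list, which holds Trbc1 and Trbc2, reached 5 UMIs in 27 control members (34.2%) and 135 cKO members (38.1%), and the ILC2 list in 0 and 3. The members set aside had a median of 10425.5 UMIs in control and 21418.5 in cKO, against 4128 and 4421 in the rest. They supplied 11.7% of all member UMIs in control and 44.9% in cKO. The largest share was stromal: the markers Col1a1, Col1a2, Dcn and Pdgfra summed to 673 CPM in control members and 3230.8 in cKO members, beside 1313.8 and 3316.2 CPM in barcodes of at most 100 UMIs, which hold cell-free RNA. Stromal markers reached the limit in 4 control and 29 cKO members, smooth muscle markers in 1 and 16, and dendritic cell markers in 0 and 6. Neutrophil markers were at 0 in both libraries, and the macrophage markers Lyz2 and Csf1r were at 0 in control. Epithelial markers gave 7 and 15 UMIs in all. Counts over all genes and over most gene lists are therefore given for all members and for the 75 control and 312 cKO members left without those cells, a choice made after seeing the data. Levels of single genes are those of all members unless stated otherwise. With the set-aside members no longer counted as γδ cells but kept in the totals, the share was 3.07 times as high in cKO among all cells. Among cells with Cd3, counted in the same way, it was 1.49 times as high.

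For the comparison of libraries over all genes, UMIs were summed over the members of each library, 373150 in control and 2649516 in cKO. Genes were compared when their mean level was worth at least 20 UMIs in the smaller sum, and a gene was counted when its CPM differed by more than 2-fold. Over all members, 238 of 3747 genes (6.35%) were higher in cKO and 65 (1.73%) were lower. Without the other-lineage members, 56 of 3355 genes (1.67%) were higher and 30 (0.894%) were lower.

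Against all other cells of the same library, γδ T cells stood out by a short list of genes that were not used to choose them. The genes were taken by the lower of the ratios in the 2 libraries, and because the cells were gated on related transcripts these ratios are descriptions. Pdcd1, which encodes the inhibitory receptor PD-1, was at 839 CPM in control and 681 CPM in cKO members, 200 and 90.1 times the level of the other cells. Cxcr6, a chemokine receptor of tissue-resident lymphocytes, was at 1323.9 and 1219.1 CPM, 119 and 61.8 times. Aqp3, a water and glycerol channel, was at 279 and 311 CPM, 69.4 and 76.2 times. Ltb, the gene of lymphotoxin β, was at 1203.3 and 503 CPM, 91.1 and 44.2 times. The list also held Trdv4, Tcrg-C2, Tcrg-C4, the adhesion receptor gene Cd226, the leukotriene B4 receptor gene Ltb4r1 and the T cell transcription factor gene Bcl11b. Less usual members were Actn2, an α-actinin best known from muscle, at 102 and 85.7 CPM, and the olfactory receptor genes Olfr60 (145 and 74.0 CPM) and Olfr1259 (105 and 76.2 CPM). The order of the libraries in some of these genes depended on the other-lineage members. Without them Pdcd1 was at 907 and 1060.3 CPM, Cxcr6 at 1447.6 and 1985.7, Actn2 at 100.0 and 141 and Olfr1259 at 115 and 120. Aqp3 was then at 291 and 511 CPM, a cKO to control ratio of 1.75 (1.42 to 2.19) in place of 1.12.

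Detection per cell showed how widespread these transcripts were. Cxcr6 was detected in 76 of 79 control and 348 of 354 cKO members, against 35 of 61 and 65 of 109 αβ cells and 3 of 88 and 12 of 516 NK cells. Pdcd1 was detected in 69 and 340 members, and after thinning in 55.7% and 58.1%, against 8.33% and 9.26% of αβ cells and 0% and 0.777% of NK cells. Aqp3 remained after thinning in 27.8% and 33.4% of γδ cells, 6.67% and 0.926% of αβ cells and 0% and 0.194% of NK cells. In cell-free RNA these 3 genes lay between 4.27 and 56.5 CPM, below their level in γδ cells of either library. Set beside the αβ gate in the same way, γδ cells were higher in Aqp3, Tns4, Mtcl1, Ablim3, Kcnk1, Dkk3, Ramp1 and Tmem176a. The αβ gate held none of Tns4, Mtcl1 and Ablim3 in either library. γδ cells were lower in co-receptor and adhesion genes of conventional T cells: Cd6 had 1 and 17 UMIs in γδ cells of control and cKO (2.68 and 6.42 CPM) and 111 and 273 UMIs in the fewer αβ cells. Cd28, the costimulatory receptor gene, had 6 and 30 UMIs in γδ cells (16.1 and 11.3 CPM) and 170 and 471 UMIs in αβ cells. Cd2 and Cd5 lay in the same direction.

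Transcripts of the type 17 programme were found at several levels. Rora, a transcription factor of the programme, was at 1401.6 CPM in control and 1161.7 in cKO members, against 506 and 638 CPM in αβ cells and 182 and 238 CPM in NK cells. Without the other-lineage members the order of the libraries turned, at 1517.4 and 1797.5 CPM. Maf, which drives type 17 γδ cells, was at 587 and 782 CPM, and at 613 and 658 CPM without the other-lineage members. Maf was not restricted to γδ cells, with 419 and 358 CPM in αβ cells, 629 and 868 CPM in macrophages by gate, 698 and 1074.2 CPM in collagen-rich cells and 140 and 446 CPM in cell-free RNA. The chemokine receptor gene Ccr2 was at 1688.3 and 1197.2 CPM in γδ cells, 126 and 188 CPM in αβ cells and 990 and 641 CPM in NK cells. In γδ cells without the other-lineage members Ccr2 was at 1878.6 and 1924.8 CPM. Receptors for the activating cytokines were also there: Il18r1 at 397 and 268 CPM and Il1r1 at 131 and 134 CPM. Sox13, a transcription factor gene of γδ cells, was detected in 3 control and 35 cKO members. It was at 8.04 and 17.7 CPM, beside 9.7 and 3.5 CPM in cell-free RNA, so its control level was under the cell-free level. Zbtb16, which encodes PLZF, was detected in 36 and 138 members. Ccr6, often used to mark such cells, had no UMI in any of the 433 members, which allows a share of cells with a UMI of up to 3.8% in control and 0.847% in cKO and does not limit transcription below detection. The marker 5830411N06Rik was near absent, with 24 UMIs in 3 control cells and 2 UMIs in 2 cKO cells.

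The type 1 list stood at the other end. Of its 22 genes only Il2rb, the β chain of the interleukin 2 and 15 receptors, was above the minimum used for comparison, at 796 and 891 CPM in γδ cells against 2353.7 and 3205.6 CPM in NK cells. Tbx21, the type 1 master regulator, gave 1 and 13 UMIs in all members, Eomes 0 and 17, Ifng 0 and 5, Gzma 1 and 4 and Prf1 0 and 18. In members without other-lineage UMIs Eomes had 0 and 3 UMIs and Ifng none. Of 24 proliferation genes 3 were above the minimum, Hmgb2, Tubb5 and Pcna, and none was past 2-fold; Mki67 had 1 and 2 UMIs.

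Hormone receptor transcripts were examined because the uterus responds to steroids. Nr3c1, the glucocorticoid receptor gene, was at 603 CPM in control and 553 CPM in cKO γδ cells, beside 574 and 642 CPM in αβ cells and 235 and 299 CPM in NK cells. It was detected in 66 of 79 and 328 of 354 members, and its level in cell-free RNA was 100.0 and 164 CPM. Without the other-lineage members Nr3c1 was at 589 and 817 CPM, so the order of the libraries turned. Pgr, the progesterone receptor gene, had 8.04 and 170 CPM over all members and fell below the minimum for comparison in both libraries once the other-lineage members were left out.

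Il17a, the cytokine that names the type 17 programme, was rare and concentrated in few cells. The control members held 4 UMIs in 3 of 79 cells (3.8%, 0.79 to 10.7), and the cKO members 149 UMIs in 38 of 354 cells (10.7%, 7.71 to 14.4). The highest cell held 2 UMIs in control and 21 in cKO. The summed level was 10.7 and 56.2 CPM, so that cKO over control was 5.25 (2.01 to 19.5). Without the other-lineage members it was 9.1 and 94.5 CPM, from 3 and 138 UMIs, a ratio of 10.4 (3.48 to 50.9). After thinning to 1000 UMIs the share of cells was 1.27% (0.032 to 6.85) and 3.97% (2.18 to 6.56), and these intervals overlap. Background was low: Il17a was found in 0 of 61 and 1 of 109 αβ cells and in no NK cell or macrophage. Il17a lay under the minimum for gene counts, and with 4 control UMIs the size of the difference is poorly bounded. Il17f gave 0 and 3 UMIs and Il22 0 and 1. The gene lies at chr1:20730905-20734496 on the plus strand of GRCm38.

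The targeted gene itself was detected in γδ T cells, above its cell-free level in both libraries. Prickle1 (chr15:93499114-93595891, minus strand, GRCm38) had 6 UMIs in 5 of 79 control members (6.33%, 2.09 to 14.2) and 80 UMIs in 57 of 354 cKO members (16.1%, 12.4 to 20.4). The level was 16.1 and 30.2 CPM, a cKO to control ratio of 1.88 (0.826 to 5.27), and 18.2 and 46.5 CPM without the other-lineage members, a ratio of 2.56 (1.12 to 7.21). Cell-free RNA held 1.55 and 5.69 CPM. No Prickle1 UMI was found in 61 control or 109 cKO αβ cells, and 0 of 88 and 2 of 516 NK cells had one. Cells rich in collagen transcripts (at least 20 UMIs and no Cd3) were positive in 5.32% and 12.1%, at median depths of 12179.5 and 15816 UMIs. At 1000 UMIs per cell the shares were 2.53% and 2.83% in γδ cells and 0.526% and 1.22% in collagen cells. A loss of Prickle1 in γδ cells of the cKO library was not seen, and a count of 3′ ends does not show whether an internal exon is missing. Of the 57 positive cKO cells, 50 (87.7%) had Trdv4, which the rule did not use, against 240 (80.8%) of the cKO members without a Prickle1 UMI, at median depths of 5152 and 4553 UMIs. Ltf, whose locus drives the Cre, had 3 UMIs in control members (8.04 CPM) and none in cKO members. Its level in cell-free RNA was 612 and 7.0 CPM.

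Few UMIs of the partners of Prickle1 in the polarity complex were detected in these cells, which does not limit transcription below detection. Vangl1 had 0 and 1 UMIs, Vangl2 1 and 1 and Celsr1 1 and 13. Prickle2 had 4 and 42 UMIs, and none in either library without the other-lineage members. Over all members, the cytoplasmic adaptor genes Dvl1 and Dvl3 had 3 and 89 UMIs and 15 and 108 UMIs. Among the planar polarity and Wnt list of 17 genes, Tcf7 and Lef1 were above the minimum, and neither was past 2-fold.

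**Figure D2:**
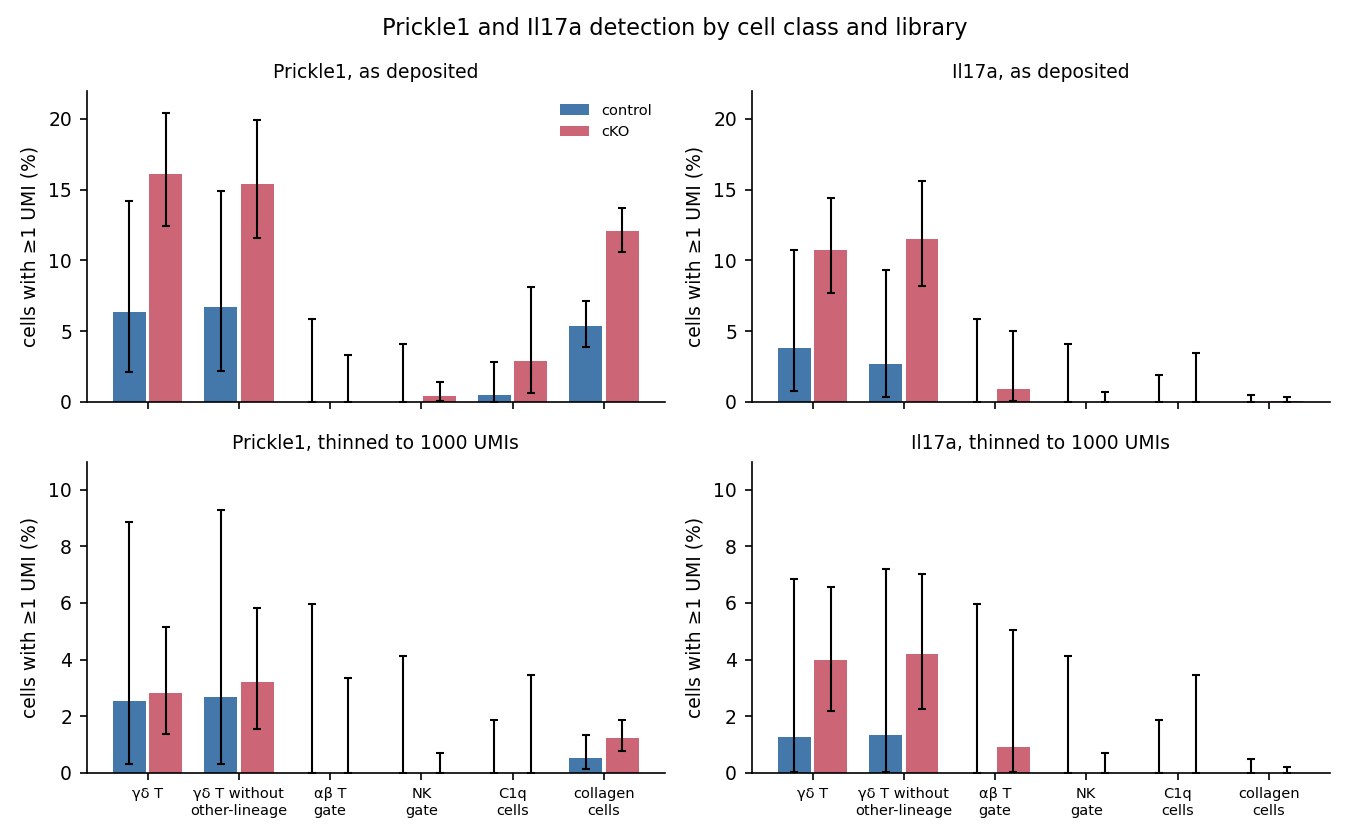
Share of cells (%) with at least 1 UMI of Prickle1 (left) or Il17a (right) in 6 cell classes by library (blue control, red cKO), as deposited (top) and after thinning to 1000 UMIs (bottom); whiskers are exact 95% binomial intervals. As deposited, cKO γδ cells reach 16.1% for Prickle1 and 10.7% for Il17a; at equal depth the Prickle1 shares of the libraries are 2.53% and 2.83%.

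The 12 genes that led the differences toward cKO over all members included chemokine, collagen and matrix genes. Ccl2, a monocyte-attracting chemokine, had 4 UMIs in control and 2913 in cKO, 10.7 and 1099.4 CPM, a ratio of 103 (40.0 to 377). Col1a2, a collagen chain, had 21 and 2441 UMIs, and the matrix gene Thbs2 28 and 2496. Gpr83 had 0 and 494 UMIs, at least 23.2-fold higher, and Vcam1 0 and 325, at least 15.3-fold higher. The others were Cryab, Mmp19, Inhba, Nrg1, Ddit4l, Plod2 and Mmp3. For all 12 genes, between 98.8% and 100.0% of the cKO UMIs lay in the 42 other-lineage members. All 7 stromal genes above the minimum were past 2-fold in the same direction, with a median log2 ratio of 2.68, and none was above the minimum once those members were left out. The same held for 3 of 3 dendritic and 2 of 2 smooth muscle genes. Those members were set aside by markers of these lineages, Col1a2 among them. The absence of such genes from the rest therefore follows largely from that choice.

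Among the remaining members, other genes led the differences toward cKO. Acpp, which encodes a prostatic acid phosphatase, was at 276 and 758 CPM in the control and cKO cells, a ratio of 2.75 (2.22 to 3.44), and 1.89 over all members. It was in 20.3% and 45.9% of all members after thinning, and at 25.2 and 19.8 CPM in αβ cells. Mmd was at 170 and 470 CPM, a ratio of 2.77 (2.11 to 3.7), against 204 and 217 CPM in αβ cells and 127 and 146 CPM in NK cells. Ank2, an ankyrin that anchors membrane proteins, rested on 6 control UMIs, with 18.2 and 112 CPM and a ratio of 6.13 (2.76 to 16.9), and 3.5 over all members; αβ cells had 18.3 and 6.61 CPM. Whether these ratios differ from those of the other lymphocytes was not tested.

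Further genes of these remaining members are given with their levels in the neighbouring lymphocytes. Tnfrsf9, the activation-induced receptor 4-1BB, was at 349 and 871 CPM, a ratio of 2.5 (2.06 to 3.05), beside 275 and 551 CPM in αβ cells and 676 and 892 CPM in NK cells. Rgs1, a signalling regulator of resident lymphocytes, was at 1074.3 and 2401.9 CPM, a ratio of 2.24 (2.0 to 2.5), beside 1073.4 and 1862.4 CPM in αβ cells and 1222.9 and 2071.2 CPM in NK cells. Fgl2, a fibrinogen-like secreted protein, was at 1156.3 and 2354 CPM, a ratio of 2.04 (1.83 to 2.27), beside 627 and 973 CPM in αβ cells and 441 and 795 CPM in NK cells. Fgl2 was in 62.7% and 88.4% of these members after thinning. Ahr, the aryl hydrocarbon receptor gene of type 17 cells, was at 30.3 and 97.9 CPM from 10 and 143 UMIs, a ratio of 3.23 (1.7 to 6.87). αβ cells held 5 and 27 UMIs of Ahr and NK cells 5 and 97. Tiparp, a known target gene of this receptor, was at 185 and 478 CPM, a ratio of 2.58 (1.99 to 3.42), and at 263 and 242 CPM in cell-free RNA. In αβ cells Tiparp was at 142 and 229 CPM and in NK cells at 85.1 and 242 CPM. Pmepa1, Gabpa, Fhl2 and Npnt completed the 12.

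Gene lists for the γδ programme are given beside the shares over all compared genes. Those were 6.35% higher and 1.73% lower over all members, and 1.67% and 0.894% without the other-lineage members. Of 14 type 17 genes compared over all members, none was higher and 2 were lower, Il7r and Zbtb16, with a median log2 ratio of -0.239 beside -0.0491 for all genes. With the other-lineage members left out, 1 of 15 was higher, Ahr, and none lower, with a median of 0.1 beside 0.0585. For Rora and Ccr2 the direction depended on those members: the ratios were 0.829 and 0.709 over all members and 1.18 and 1.02 without them. Pdcd1 likewise had a ratio of 0.811 over all members and 1.17 without them.

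Of 7 genes of receptor signalling none was past 2-fold in either set. Their median log2 ratio was -0.335 over all members and 0.15 without the other-lineage members, beside -0.0491 and 0.0585 for all genes. Of 12 cytokine receptors, 2 were lower over all members, Il7r and Il2rg, beside 1.73% of all compared genes. None was lower past 2-fold without the other-lineage members. Il7r, the receptor for the survival cytokine interleukin 7, was at 1000 and 448 CPM over all members and at 1077.4 and 671 CPM without them, a ratio of 0.623. It was detected in 50.6% and 35.7% of members after thinning. Ltb was at 1203.3 and 503 CPM, a ratio of 0.418 (0.376 to 0.467), and 1317.1 and 801 CPM without them, a ratio of 0.608. Ltb was also lower in the cKO αβ cells, at 288 and 97.8 CPM, and NK cells, at 195 and 54.0 CPM. The glycolysis list had 1 of 12 genes higher over all members, Adm, beside 6.35% of all genes, and none of 9 without the other-lineage members.

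Over all compared genes, 6.35% were higher and 1.73% lower over all members, and 1.67% and 0.894% without the other-lineage members. Of 7 cytokine and growth factor genes, Lif and Vegfa were higher over all members and Ltb was lower. In the remaining members 4 were compared, and Fgl2 alone was past 2-fold. Areg, a repair factor made by some tissue lymphocytes, had 4 and 27 UMIs. Of 8 residency genes Cd9 was higher over all members, and of 7 without the other-lineage members Rgs1 was. Itgae, the integrin CD103 of epithelial residents, had 2 and 3 UMIs in all members. Of 3 checkpoint and costimulation genes none was past 2-fold over all members, and of 4 without the other-lineage members Tnfrsf9 was higher.

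The count for immediate early and stress genes depended on the other-lineage members. Over all members 8 of 21 genes were higher, beside 6.35% of all compared genes, among them Egr1, Nr4a2, Fos and Jun. The median log2 ratio was 0.826, beside -0.0491 for all genes. Without those members 2 of 17 were higher, Hspa1a and Hspa1b, and 1 was lower, Nfkbia. Over all genes 1.67% were then higher and 0.894% lower. The median of the list was 0.266, beside 0.0585 for all genes. Hspa1a and Hspa1b are nearly identical copies, and 1 cKO cell held 79.5% of the 396 Hspa1a UMIs left. Nr4a2, a nuclear receptor gene induced by receptor signals, had 5 UMIs in 4 control members and 345 in 81 cKO members, 13.4 and 130 CPM, a ratio of 9.72 (4.12 to 30.1). Without the other-lineage members it had 3 and 130 UMIs, a ratio of 9.77 (3.27 to 48.0), but too few UMIs to pass the minimum. Its level in cell-free RNA was higher than in γδ cells, at 57.4 and 187 CPM, and αβ cells had 298 and 371 CPM. With the estimated cell-free share subtracted (0.722% of member UMIs in control and 1.77% in cKO, from the levels of epithelial genes), the log2 ratio of Nr4a2 over all members was 3.16, beside 3.15 before.

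**Figure D3:**
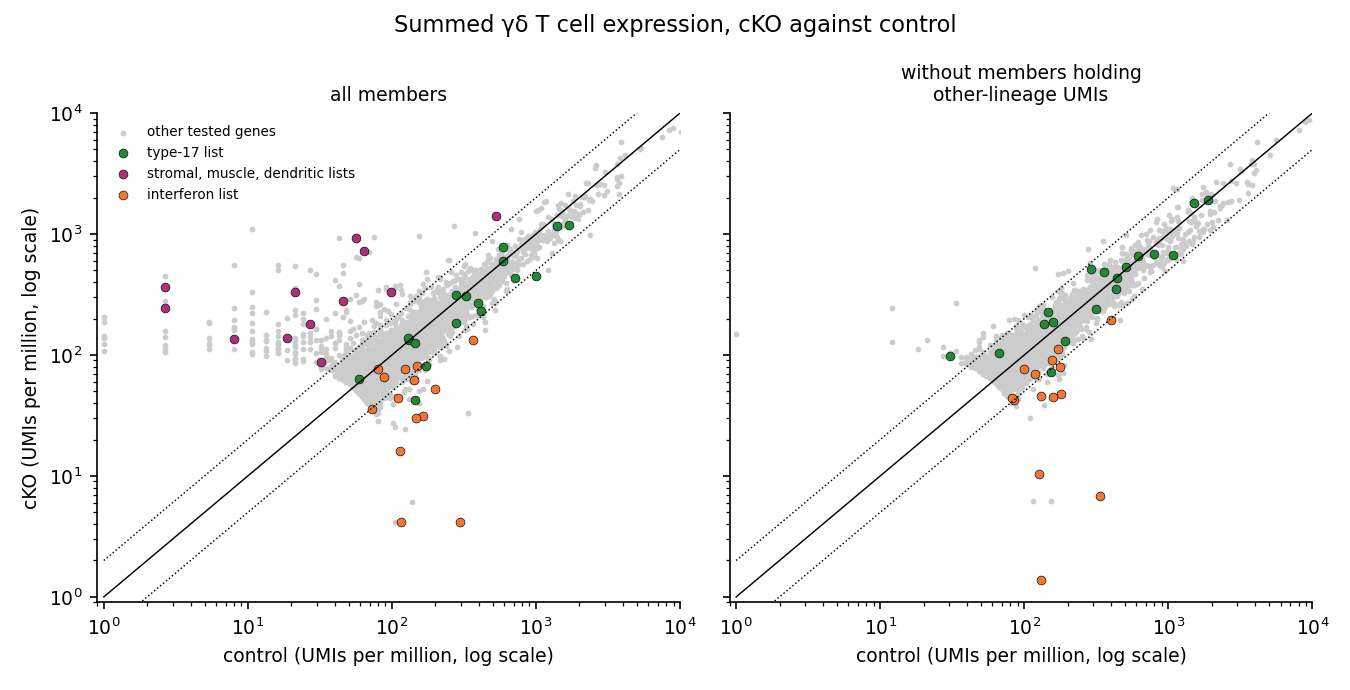
Summed level of each compared gene (CPM, log scales) in γδ T cells of the control (x) and cKO (y) library, for all members (left) and without members holding other-lineage UMIs (right); the solid line marks equal levels, dotted lines 2-fold, and levels under 1 are drawn at 1. Stromal, muscle and dendritic genes (purple) lie far above the line on the left and are not among the compared genes on the right, while interferon genes (orange) lie below it in both.

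Interferon-response genes were the list with the most genes lower in cKO by more than 2-fold. These genes are switched on by interferon receptor signalling, and they include antiviral effectors and the guanylate-binding and immunity-related GTPases. Of 38 listed genes 14 were above the minimum. Over all members, 10 of the 14 were lower by more than 2-fold, beside 1.73% of all compared genes. None was higher, and all 14 had a ratio below 1. The median log2 ratio was -1.39, beside -0.0491 for all genes. Without the other-lineage members, 9 of 14 were lower, beside 0.894% of all genes, and none higher. The median was then -1.09 beside 0.0585. Across the 16 alternative settings that gave a value the median ran from -1.79 to -1.09.

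Among the GTPase genes, Gbp4 and Igtp were each seen in 20 control members. Gbp4 had 61 UMIs in 20 of 79 control members and 83 UMIs in 41 of 354 cKO members. Its level was 163 and 31.3 CPM, 5.22-fold lower in cKO (3.69 to 7.35), against 9.7 and 10.5 CPM in cell-free RNA. Igtp had 55 UMIs in 20 cells and 80 UMIs in 47 cells, 147 and 30.2 CPM, 4.88-fold lower (3.4 to 6.97), against 16.3 and 10.1 CPM in cell-free RNA. Gbp2 was at 198 and 52.5 CPM, with 69.0 and 38.5 CPM in cell-free RNA. Gbp6, which was not on the list, was at 153 and 40.0 CPM. These ratios were smaller without the other-lineage members: Gbp4 was 3.74-fold lower (2.6 to 5.36), Igtp 3.49-fold (2.38 to 5.1), Gbp6 2.72-fold (1.92 to 3.82) and Gbp2 2.22-fold, at 176 and 79.4 CPM, in place of 3.78-fold. Iigp1, a GTPase gene under the minimum, rested on fewer cells, with 25 UMIs in 6 control members, 10 of them in 1 cell, and 7 UMIs in 6 cKO members. Its level was 67.0 CPM in control (43.4 to 98.9), beside 52.0 CPM in cell-free RNA. Gbp genes are close copies, and reads may be split among them.

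The antiviral genes rested on fewer cells. Ifit1 had 111 UMIs in 14 control members, 34 of them in 1 cell, and 11 UMIs in 7 cKO members, or 297 and 4.15 CPM. Cell-free RNA of the same libraries held 306 and 14.0 CPM of Ifit1. Rsad2, which encodes viperin, had 43 UMIs in 9 cells and 11 UMIs in 5 cells, and without the other-lineage members 43 and 2 UMIs. Slfn5 was at 113 and 16.2 CPM, 6.94-fold lower (4.42 to 10.9), with 21 of the 42 control UMIs in 1 cell. The other-lineage members held 65.1% of its cKO UMIs, and without them Slfn5 was at 127 and 10.3 CPM, 12.4-fold lower (6.74 to 24.1). Outside the list, the ubiquitin ligase gene Dtx3l and the ADP-ribosyltransferase gene Parp14 had ratios of 0.323 and 0.329, and 0.381 and 0.399 without the other-lineage members. Samhd1, which encodes a nucleotide hydrolase that restricts viruses, had a ratio of 0.363, but 0.549 (0.455 to 0.665) without the other-lineage members, which is not past 2-fold. The surface gene Ms4a6b had ratios of 0.196 and, without them, 0.281. Odc1, the first enzyme of polyamine synthesis, was at 2352.9 and 990 CPM, 2.38-fold lower (2.2 to 2.57), and 1.94-fold (1.79 to 2.1) without the other-lineage members. Ly6a, the gene of the Sca-1 antigen, was at 464 and 194 CPM without the other-lineage members.

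**Figure D4:**
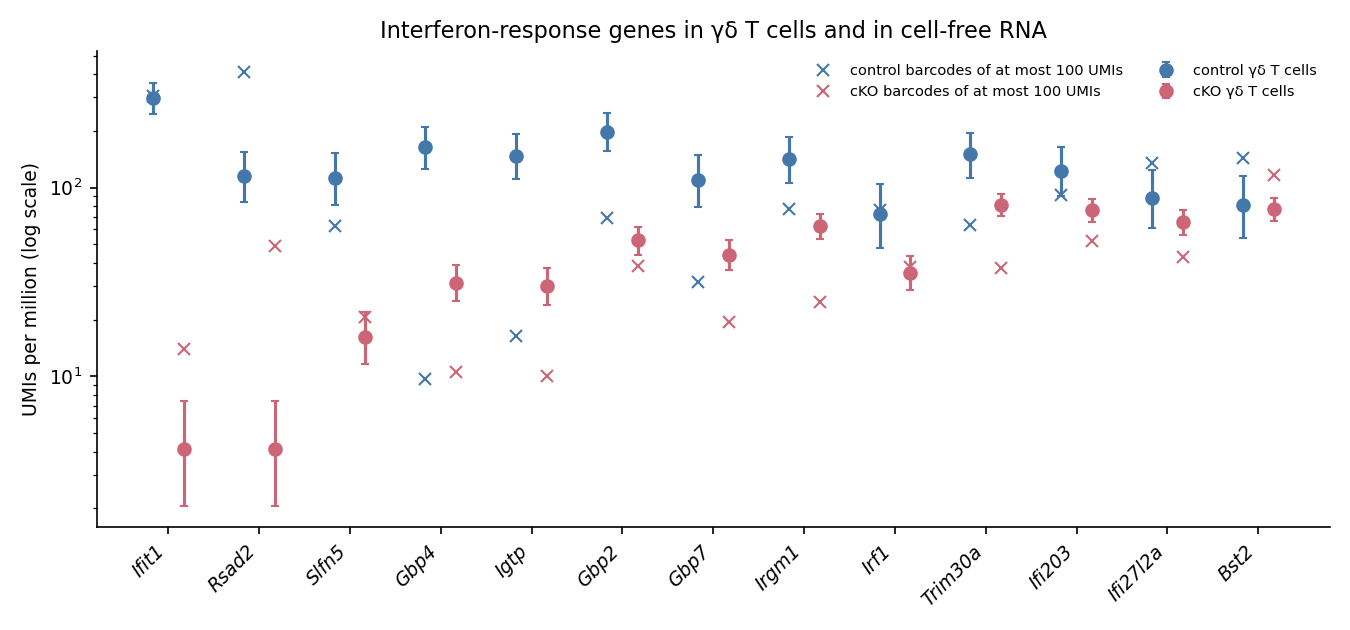
Level (CPM, log scale) of 13 compared interferon-response genes in γδ T cells of the control (blue) and cKO (red) library; circles are summed levels of all members, whiskers exact 95% Poisson intervals, and crosses the level in barcodes of at most 100 UMIs. Gbp4 and Igtp lie far above their crosses in control, while Ifit1 lies at its cross and Rsad2 below it.

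Counted per cell, the interferon transcripts were unevenly spread. At 1000 UMIs per cell, 28 of 79 control members (35.4%) and 174 of 353 cKO members (49.3%) had none of the 37 measured genes. At least 2 of the genes were detected in 41.8% of control and 18.7% of cKO members. At least 8 were detected in 9 control members (11.4%) and in 1 cKO member (0.283%), and those 9 cells held 56.6% of the thinned interferon UMIs of the control members. All 9 were among the cells without other-lineage UMIs. The highest number was 16 genes in control and 11 in cKO.

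The summed level of the list was also lower in the cKO library in other lymphocytes and in cell-free RNA. The summed list was at 2926.4 CPM in control and 936 CPM in cKO γδ cells, and at 3183.5 and 1065.8 CPM without the other-lineage members. In αβ cells it was at 3423.9 and 1850.5 CPM, with 24.5% of the cKO sum in 1 cell. In NK cells it was at 3625.3 and 911 CPM, and in cell-free RNA at 3247.1 and 785 CPM. Cells with at least 8 of the genes at equal depth were 8.33% and 0.926% of αβ cells and 11.4% and 0% of NK cells. Whether the size of the difference varied between these classes was not tested. Cell-free RNA was estimated, from 15 and 27 UMIs of epithelial genes, at 0.722% of member UMIs in control and 1.77% in cKO. With that share subtracted, 9 of 13 compared interferon genes were lower by more than 2-fold in γδ cells, with a median log2 ratio of -1.45.

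**Figure D5:**
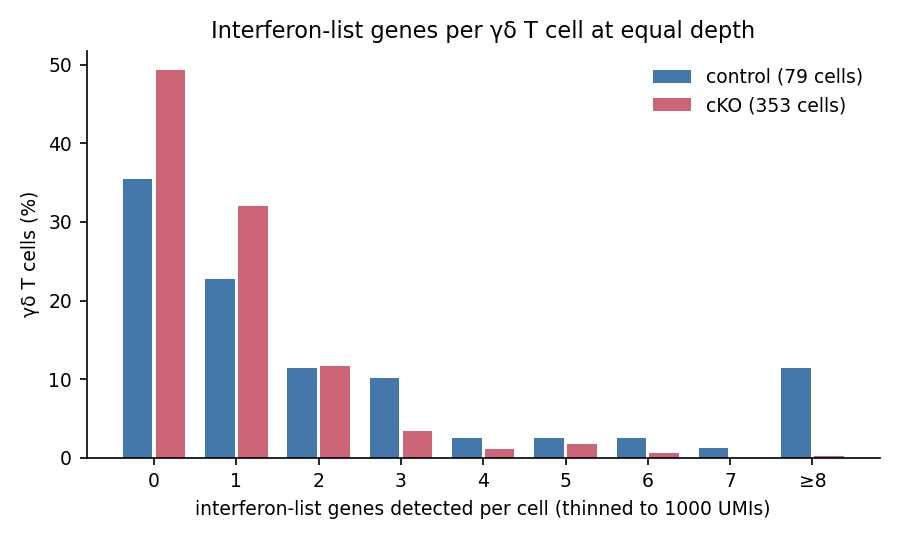
Share of γδ T cells (%) by the number of interferon-list genes detected per cell after thinning to 1000 UMIs, in control (blue, 79 cells) and cKO (red, 353 cells); the last bar pools 8 or more genes. The control distribution reaches further to the right, and 8 or more genes were detected in 11.4% of control and 0.283% of cKO cells.

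Interferons act through a short DNA element bound by transcription factors of the interferon pathway, built on the repeat GAAANNGAAA. This motif was searched on both strands of the 250 bases before the start of each gene in the RefSeq promoter table (GRCm38.p6); overlapping matches were counted apart. It was found in 978 of 32851 promoters (2.98%) and in 936 of 27025 genes (3.46%). Of the 38 interferon-list genes 29 had an entry, and 18 of these held the motif (62.1%). Of the compared genes with an entry, 10 of 11 held it. In Gbp2, Ifi203, Irgm1 and Slfn5 the matches did not lie wholly before the gene start in GENCODE M21. The list was drawn up from known interferon targets, so this share describes the list and is no test of it. A match is not evidence of binding.

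The promoters of 4 of these genes are shown because they differ in where the element lies, with matches in capitals. Each runs 5′ to 3′ on the strand of its gene and ends before the first transcribed base. They lie at chr11:58199306-58199555 (plus strand) for Igtp, chr3:142530086-142530335 (plus) for Gbp7, chr19:34640639-34640870 (plus) for Ifit1 and chr12:26456453-26456702 (minus) for Rsad2, in GRCm38.p6.
Igtp: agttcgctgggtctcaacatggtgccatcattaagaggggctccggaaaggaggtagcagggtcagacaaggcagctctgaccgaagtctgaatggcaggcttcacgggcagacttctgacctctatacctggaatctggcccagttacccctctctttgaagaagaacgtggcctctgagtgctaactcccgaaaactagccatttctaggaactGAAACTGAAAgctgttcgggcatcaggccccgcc
Gbp7: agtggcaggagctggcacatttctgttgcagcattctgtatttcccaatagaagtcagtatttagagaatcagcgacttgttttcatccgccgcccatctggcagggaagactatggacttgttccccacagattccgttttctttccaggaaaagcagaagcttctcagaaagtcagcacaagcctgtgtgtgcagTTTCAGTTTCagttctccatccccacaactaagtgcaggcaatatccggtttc
Ifit1: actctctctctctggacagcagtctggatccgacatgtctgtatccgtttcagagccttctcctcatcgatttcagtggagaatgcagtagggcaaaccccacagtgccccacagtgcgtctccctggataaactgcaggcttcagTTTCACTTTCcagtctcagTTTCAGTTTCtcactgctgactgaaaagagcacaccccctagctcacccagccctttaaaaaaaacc
Rsad2: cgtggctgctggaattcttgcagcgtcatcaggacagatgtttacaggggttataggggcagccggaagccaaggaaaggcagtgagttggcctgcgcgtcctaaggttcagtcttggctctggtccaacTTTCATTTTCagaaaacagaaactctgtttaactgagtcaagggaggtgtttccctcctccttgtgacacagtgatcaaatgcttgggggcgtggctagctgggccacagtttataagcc

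Distances are counted from the RefSeq start; the Ifit1 sequence stops short of it, at the earlier start in GENCODE M21. In Igtp the match begins 34 bases before the RefSeq start and in Gbp7 53 bases before it. Ifit1 holds a pair of matches, at 85 and 104 bases, and Rsad2 1 match at 120 bases. In Gbp7, Ifit1 and Rsad2 the printed strand carries the reverse complement. The levels of these genes in γδ cells were 147 and 30.2 CPM for Igtp, 110 and 44.2 CPM for Gbp7, 297 and 4.15 CPM for Ifit1 and 115 and 4.15 CPM for Rsad2, in control and cKO.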

How the data were processed

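Droplet-based single-cell RNA sequencing was done on dissociated whole uteri, 1 library per group. The deposited values were raw counts of UMIs per gene and barcode, unfiltered, with 1214689 barcodes and 45035801 UMIs in control and 1359477 barcodes and 57145553 UMIs in cKO. Per the file headers, Cell Ranger 4 wrote the matrices, while the submitters' processing notes name Cell Ranger 6.1.1 and the build mm10; the aligner settings are not given in the sources used here. Of the gene identifiers, 99.61% were found in GENCODE M21 on GRCm38.

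Members and gene lists were chosen with earlier results of these data known. Cells were barcodes with 500 or more genes and a mitochondrial share of 20% or less; 283 control and 46 cKO barcodes exceeded that share. Scrublet's automatic thresholds marked 14 control and 0 cKO cells, so the caller had not worked and no doublets were removed; a score limit of 0.25 was tried as an alternative. UMIs of members were summed per library and given as CPM, with exact Poisson, binomial (Clopper-Pearson) and conditional binomial 95% intervals. The intervals cover counting error only. Log2 ratios carry a pseudocount of 0.5 UMI, a count of 0 was treated as allowing 3 counts over the group, and cell-free RNA was taken from barcodes of at most 100 UMIs. No p-values were computed, because cells are not replicates.

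Named genes were the 12 largest rises and 12 largest falls, ranked by the interval limit nearer to 1, detected in at least 5 cells of the higher library and not under the cell-free level there; list members; the 20 genes most above all other cells; and the 12 highest and lowest against the αβ gate. The rankings passed over genes used by the rule, mitochondrial and ribosomal genes, haemoglobins, immunoglobulins and predicted genes without a name. A few genes within these rules are not reported here. Alternatives changed the cell filters, the rule, the scaling (edgeR 4.0.16 TMM factors or the median ratio), depth, the weight of cells, cell-free RNA, the low-count minimum and the pseudocount. The calculation was tested on simulated data. Python 3.11.15, scipy 1.17.1, scanpy 1.11.5 and R 4.3.3 were used.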

Additional observations from a re-analysis of the deposited data

How the results depend on the processing

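No paired analysis was possible because each group was 1 library, and no replicate could be left out. The ratios of γδ shares, the medians of the interferon and stress lists and Il17a kept their direction in every alternative that gave a value. With every cell thinned before the rule was applied, 36 control and 175 cKO cells were left and 236 genes were compared, 4 higher and 4 lower. Without other-lineage members the counts were 56 and 30, with the mean of cells in place of the sum 85 and 43, and with every gene with at least 1 UMI 5738 and 1538. The type 17 median was 0.316 after thinning and 0.1 without other-lineage members. After thinning the log2 ratio changed sign for Vcam1, Ddit4l and Mmp3 (each -0.696, at 0 and 1 UMIs), Trbc2 (0.565), Rora (0.316), Pdcd1 (0.454), Ccr2 (0.318), Icos (0.585), Actn2 (1.18) and Ramp1 (0.0406). Prickle1 went to -0.696. Without other-lineage members it changed sign for Inhba (-0.926), Vcam1 (-0.564), Nrg1 (-0.564), Plod2 (-0.383), Mmp3 (-1.41), Trbc1 (0.156), Rora (0.243), Pdcd1 (0.223), Ccr2 (0.0342), Cxcr6 (0.455), Icos (0.546), Actn2 (0.475) and Ramp1 (0.233), and with the mean of cells for Trbc1 (0.118), Rora (0.154), Pdcd1 (0.087), Cxcr6 (0.31), Icos (0.388), Actn2 (0.343) and Ramp1 (0.242). The cause was not tested where fewer cells or UMIs do not show it. Scaling shifted log2 ratios by -0.037 (TMM) and -0.021 (median ratio). Depth limits the size of the differences in Il17a and Prickle1, with 4 and 6 control UMIs.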
